A study of Homo sapiens with 3 samples.

Results

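The enzymes of the methionine cycle and of transsulfuration were followed in the human embryonic stem cell line khES3. Undifferentiated cells had spent 5 hours in complete medium, in leucine-free medium or in lysine-free medium, 1 array each. The 10 members were MAT2A, MAT2B, GNMT, AHCY, AHCYL1, MTR, MTRR, CBS, CTH and MTAP, out of 19775 genes that the array annotation names alone on a probe set. Their probe sets were found by an exact match of the gene symbol. Together they had 25 probe sets, and no probe set shared a member with another gene. All 3 groups were the same cell line with no transgene or gene edit named in the labels. Leucine and lysine are essential amino acids that human cells cannot make; methionine itself was not named as removed from any medium. With 1 array a group no test between groups was possible, and no difference below has a replicate check or a p-value.

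The methionine cycle turns methionine into S-adenosylmethionine (SAM), the methyl donor of most cellular methylation. Methyl transfer leaves S-adenosylhomocysteine, which is hydrolysed to homocysteine and adenosine. Homocysteine is either remethylated to methionine or passed through transsulfuration to cysteine, and a salvage route returns to methionine the sulfur left over from polyamine synthesis. Human pluripotent stem cells are known for a high demand on this cycle. The transsulfuration gene CTH is a known target of ATF4, the transcription factor translated when an amino acid runs short.

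One member, CTH, stood past 2-fold on both deprived arrays, and it was higher on each. The other 8 measurable members lay within 1.5-fold of complete medium on their brightest probe set. MAT2A was lower on both deprived arrays in each of its 2 probe sets. Sequence upstream of these 2 genes is shown because they were the only members with several probe sets that all lay on one side of complete medium, by more than 0.3 in log2 signal, on both deprived arrays. The windows run from 250 bases before to 50 bases after the RefSeq start site on GRCh38.p14, both on the plus strand: chr1:70411018-70411317 for CTH and chr2:85538918-85539217 for MAT2A. Capitals mark a match to one of 3 strings searched on both strands: TGATGNAAN, the core of the C/EBP-ATF response element, TGACG, part of the cyclic AMP response element, and CACGTG, the E-box.
CTH: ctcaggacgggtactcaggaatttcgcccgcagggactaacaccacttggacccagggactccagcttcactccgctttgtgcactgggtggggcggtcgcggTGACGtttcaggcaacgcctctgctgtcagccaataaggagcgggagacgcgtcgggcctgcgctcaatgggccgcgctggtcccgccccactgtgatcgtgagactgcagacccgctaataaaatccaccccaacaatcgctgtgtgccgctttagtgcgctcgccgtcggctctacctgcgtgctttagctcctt
MAT2A: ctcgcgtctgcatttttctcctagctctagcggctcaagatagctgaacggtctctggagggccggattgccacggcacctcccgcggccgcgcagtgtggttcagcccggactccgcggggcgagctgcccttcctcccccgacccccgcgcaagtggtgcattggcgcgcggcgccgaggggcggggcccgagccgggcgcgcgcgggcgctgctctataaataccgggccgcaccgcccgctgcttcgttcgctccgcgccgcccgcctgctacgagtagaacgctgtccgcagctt
The CTH window held TGACG once, at position -147 from the start site, and the MAT2A window held none of the 3 strings. TGACG occurs in 24.6% of all 35116 RefSeq windows of this length, TGATGNAAN in 3.61% and CACGTG in 7.26%. Windows were found for 9 members, 17 in all. Of these members, CTH and AHCYL1 had TGACG, 0 had TGATGNAAN and 0 had CACGTG. The 4 TGACG matches of AHCYL1 included an overlapping pair, 1 on either strand, at positions -90 and -87. These matches describe the letters in the windows only.

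Values are the deposited signal of a probe set, on a linear scale made equal in trimmed mean between arrays. The floor, below which a signal was not read, was the 40th percentile of each array: 54.6 in complete medium, 56.7 without leucine and 62.4 without lysine. Probe sets were kept where their mean level reached the median of all probe sets, which left 20 of the 25 member probe sets and 9 of the 10 members; GNMT was the exception. Differences are in log2 signal after flooring, so that 1 is 2-fold, and a gene is read by its brightest kept probe set unless stated. A pair of measures stands in for an error. Within a gene, the SD of the difference over its probe sets was 0.49 without leucine, 0.57 without lysine and 0.58 between the deprived arrays (5981 genes). The SD of the differences of the 1296 genes of like level (the same 10% of the kept genes by signal) is given beside each member. Both leave out the spread between cultures. The SD among genes of like level also holds any real differences of those genes, so it is not an error alone. The 2 deprived arrays were compared with the same complete-medium array, so an error on that array enters both differences.

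The stem cell label was borne out by its markers. Of 14 stem cell markers 13 were kept, all above the floor on every array, with a summed signal of 264204 in complete medium, 276188 without leucine and 275701 without lysine. The marker not kept was TDGF1. GDF3 was the 1 marker past 2-fold on its brightest probe set, at -1.45 without lysine. In that comparison SOX2 and ZFP42 were at 0.21 and 0.35 on the brightest, but their other probe sets ran down to -1.82 and -1.18. Of 10 fibroblast and feeder markers 6 were kept; their summed signal was 28201, 25707 and 29639, and COL3A1, FAP, LUM and PDGFRB were not kept. The 3 readings of COL1A1 were 11552, 13187 and 18609, those of THY1 12735, 8348 and 7503, and those of DCN 79.5, 12.5 and 134. Of 6 liver markers 3 were kept, with a summed signal of 948, 1023 and 684, while ALB, APOA1 and TTR were not. A 3′ over 5′ ratio of the ACTB control probe sets, a sign of RNA quality, stood at 5.44 in complete medium, 7.55 without leucine and 11.2 without lysine. For GAPDH it was 1.08, 1.23 and 1.25. The part of these values in the differences below was not tested.

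**Figure D1:**
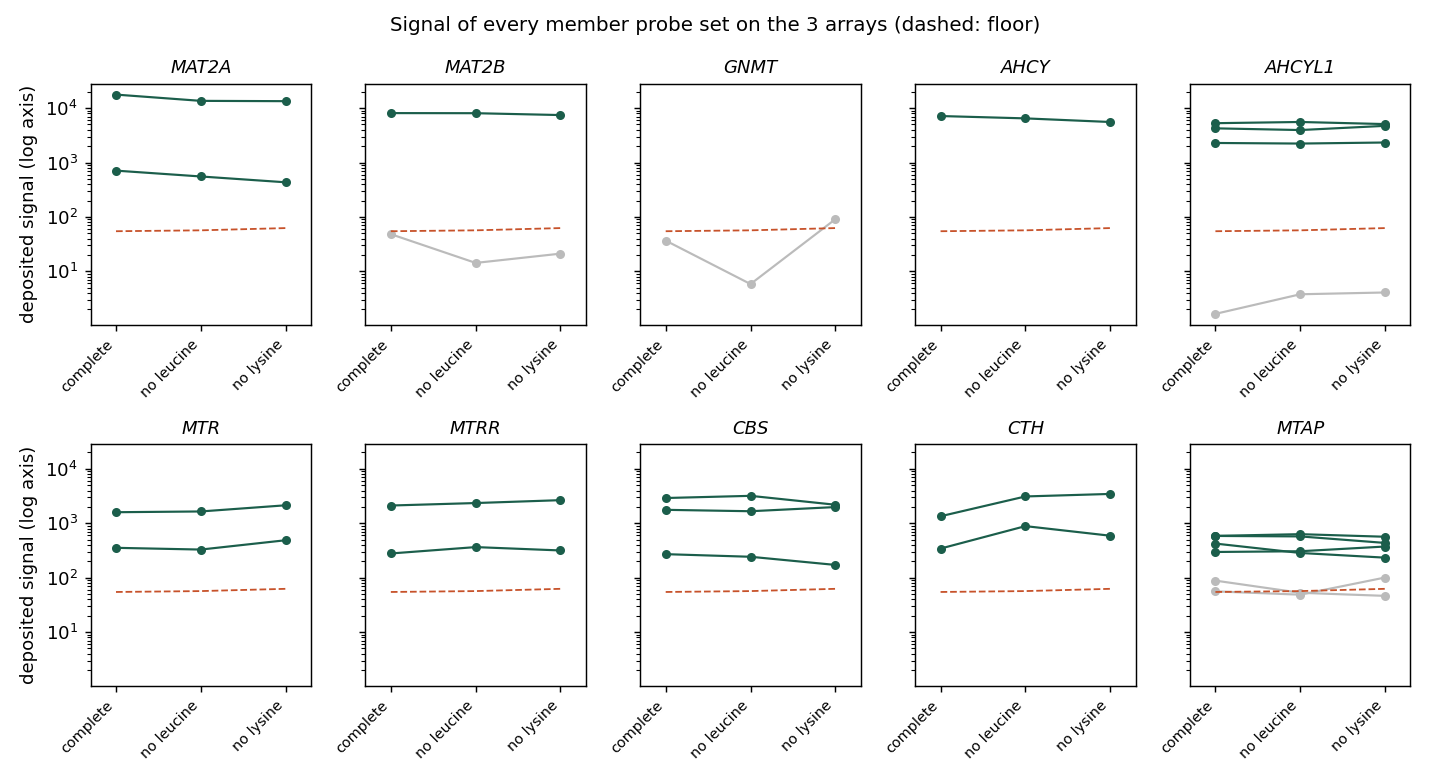
Deposited signal (log axis) of every probe set of the 10 members on the complete-medium, leucine-deprived and lysine-deprived arrays, 1 line per probe set; green lines are kept probe sets, grey lines are not, and the dashed line is the floor. Both CTH lines are higher on the deprived arrays, both MAT2A lines are lower there, and the GNMT line crosses the floor on the lysine-deprived array alone.

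SAM is made by MAT2A, the catalytic subunit of the methionine adenosyltransferase of most tissues, held by MAT2B, its regulatory subunit. The brighter MAT2A probe set read 17716 in complete medium, 13588 without leucine and 13414 without lysine. Both deprived arrays lay below complete medium and close to each other. The differences were -0.38 without leucine and -0.40 without lysine, beside an SD of 0.26 and 0.34 among genes of like level. The dimmer MAT2A probe set read 709, 554 and 433. Its differences were -0.36 and -0.71, so the 2 probe sets differed by little without leucine (-0.37 ± 0.02, SD, n = 2 probe sets) and by more without lysine (-0.56 ± 0.22, SD, n = 2 probe sets). Of all 12961 kept genes, 13.9% had a lower difference than MAT2A without leucine and 18.3% without lysine. Among all kept genes MAT2A was thus not extreme on either array. Those genes include dimmer ones, and their SD was wider, at 0.50 without leucine and 0.59 without lysine. The place of MAT2A among genes of like level was not counted. MAT2B read 8096, 8062 and 7453, with differences of -0.01 and -0.12 that were smaller than the SD among genes of like level. The other MAT2B probe set lay below the floor on all 3 arrays. All 3 kept probe sets of this pair were at or below complete medium on both deprived arrays, except that MAT2B without leucine turned to 0.02 after quantile normalization.

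GNMT, the glycine N-methyltransferase that uses up excess SAM and is known chiefly from liver, was not read as expressed in complete medium or without leucine. Its single probe set read 36.7 in complete medium and 5.84 without leucine, both under the floor, and 90.8 without lysine. The last value was above the floor of its array and 1.66-fold higher than the complete-medium floor. It is a dim value at the 47.6th percentile of that array, from 1 probe set.

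AHCY hydrolyses S-adenosylhomocysteine, which otherwise inhibits methyltransferases, and AHCYL1 is a related protein known as a regulator of the inositol trisphosphate receptor. AHCY had 1 probe set, which read 7150 in complete medium, 6475 without leucine and 5556 without lysine. The order was complete, leucine-deprived, lysine-deprived. Its difference of -0.14 without leucine lay inside the SD of like-level genes (0.26), and that of -0.36 without lysine was close to it (0.34). AHCYL1 had 3 bright probe sets, with signals between 2231 and 5560 over all arrays. They differed from complete medium by -0.10 to 0.07 without leucine and by -0.05 to 0.15 without lysine. Each of these was smaller than both measures of spread. The fourth AHCYL1 probe set was under the floor throughout, between 1.65 and 4.09.

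Remethylation is carried out by MTR, the cobalamin-dependent methionine synthase, and MTRR, the reductase that returns its oxidised cofactor to use. MTR read 1596 in complete medium, 1648 without leucine and 2140 without lysine. Complete and leucine-deprived medium lay together and the lysine-deprived array above them. On its dimmer probe set the lysine-deprived array was again the highest, at 354, 329 and 488. Without lysine the 2 probe sets were 0.42 and 0.46 higher (0.44 ± 0.03, SD, n = 2 probe sets), about the SD of 0.42 among genes of like level. Without leucine they were 0.05 and -0.11. MTRR read 2119, 2353 and 2659, a difference of 0.15 without leucine and 0.33 without lysine. In its dimmer probe set the leucine-deprived array was the highest, at 279, 365 and 316. The 4 probe sets of MTR and MTRR were all above complete medium without lysine, by 0.18 to 0.46. When arrays were centred on their medians, which moved the median of all kept genes to -0.24 for this comparison, 3 of the 4 stayed above 0 and the dimmer MTRR probe set was at -0.06.

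Transsulfuration has 2 enzymes. CBS joins homocysteine to serine as cystathionine, and CTH, cystathionine gamma-lyase, splits cystathionine to release cysteine. The brighter CTH probe set read 1346 in complete medium, 3111 without leucine and 3460 without lysine. Both deprived arrays were well above complete medium and near each other. It was 2.31-fold higher without leucine (1.21 in log2) and 2.57-fold higher without lysine (1.36), beside SDs of 0.33 and 0.42 among genes of like level. The dimmer CTH probe set read 343, 886 and 591, which is 2.59-fold higher without leucine (1.37) and 1.72-fold higher without lysine (0.78). The 2 probe sets averaged 1.29 ± 0.11 without leucine and 1.07 ± 0.41 without lysine (SD, n = 2 probe sets). They therefore ordered the deprived arrays in opposite ways: leucine minus lysine was -0.15 on the brighter and 0.59 on the dimmer probe set. CTH ranked 283 from the top of 12961 kept genes without leucine and 381 without lysine.

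CBS showed no such difference. Its brightest probe set read 2912 in complete medium, 3193 without leucine and 2191 without lysine. A second read 1766, 1664 and 1985, and the dimmest 271, 242 and 172. Without leucine the 3 probe sets lay between -0.16 and 0.13, all inside the SD of 0.26 among genes of like level. Without lysine they were -0.41, 0.17 and -0.66, which puts 2 probe sets below and 1 above complete medium (-0.30 ± 0.42, SD, n = 3 probe sets). The probe sets of CBS thus did not settle a direction without lysine.

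MTAP cleaves methylthioadenosine, the by-product of polyamine synthesis, at the entry of methionine salvage. It had 6 probe sets, of which 4 were kept; the other 2 were dim, between 46.3 and 100.6. The brightest read 586, 631 and 565, differences of 0.11 without leucine and -0.05 without lysine. The 4 ranged from -0.57 to 0.11 without leucine and from -0.86 to 0.33 without lysine. The same probe set was lowest in both cases, at 423, 285 and 233, while the one highest without lysine read 297, 306 and 374. With an SD of 0.31 and 0.51 over these 4 probe sets, no direction was settled for MTAP.

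**Figure D2:**
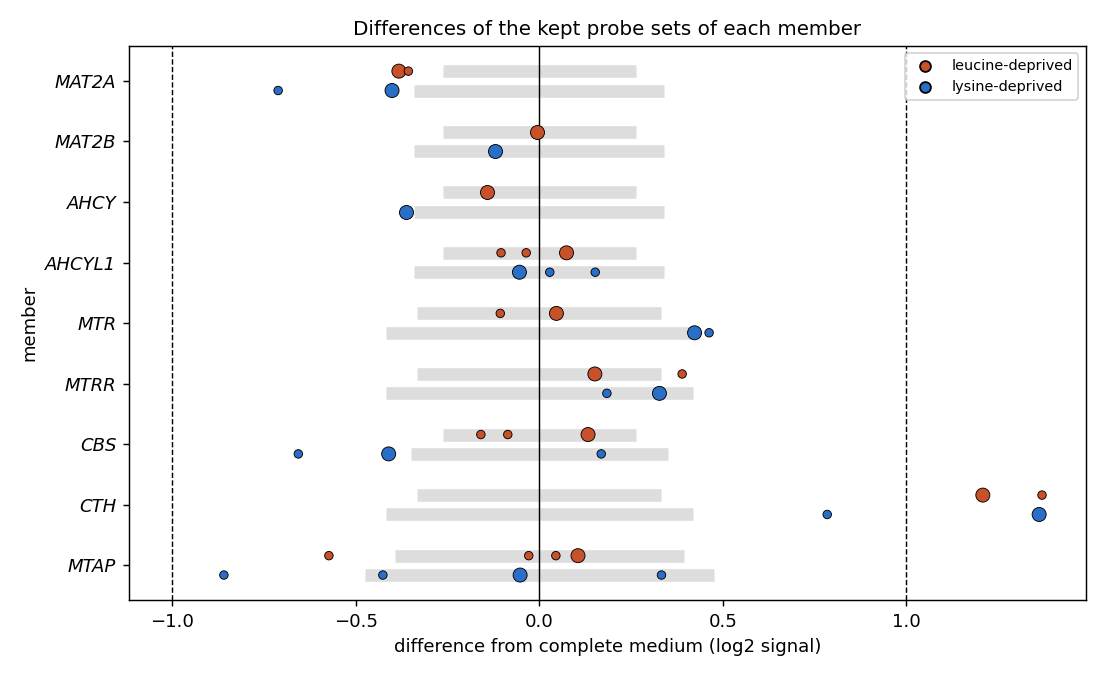
Difference from complete medium in log2 signal for each kept probe set of the 9 measurable members, orange for leucine-deprived and blue for lysine-deprived; large points are the brightest probe set, grey bars are plus and minus the SD among genes of like level, and dashed lines mark 2-fold. Only CTH points reach a dashed line, both for leucine-deprived and 1 of 2 for lysine-deprived.

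Counted over the members, 1 of 9 was at least 2-fold higher without leucine (CTH) and 0 were 2-fold lower, where 2.66% of the 12297 genes read above both floors were higher and 1.43% lower (4.09% either way). Without lysine the counts were again 1 of 9 higher (CTH) and 0 lower, where 4.22% of 12227 genes were higher and 1.95% lower (6.17% either way). At 1.5-fold the members' counts were the same, while 9.34% of all genes were higher and 5.97% lower without leucine (15.3% either way), and 13.2% higher and 8.69% lower without lysine (21.9% either way). By probe set, 2 of the 20 kept were 1.5-fold higher on each deprived array, both of CTH. Without lysine 3 were 1.5-fold lower, the dimmer MAT2A, the dimmest CBS and 1 of MTAP, and 0 were so without leucine. The share of all kept probe sets past 1.5-fold was not counted, and the shares above are per gene. These probe-set counts are therefore not read as a result about the members. The median of the 9 members was 0.07 without leucine and -0.05 without lysine, against 0.01 and 0.00 over all 12961 genes. With arrays centred on their medians the split of all genes past 2-fold turned from 327 higher and 176 lower to 208 and 266 without leucine, and from 516 and 239 to 259 and 580 without lysine (443 and 326 after quantile normalization). CTH was at 1.08 and 1.12 with that centring.

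Between the 2 deprived arrays 0 of 9 members passed 2-fold or 1.5-fold, where 1.93% of 12198 genes were 2-fold higher without leucine than without lysine and 2.8% lower (4.74% either way). At 1.5-fold these shares were 7.75% and 9.26% (17% either way). All genes past 2-fold split into 236 higher and 342 lower, into 361 and 249 with median centring and into 323 and 298 after quantile normalization. The widest member was CBS, 0.54 higher without leucine than without lysine, although its 3 probe sets ran from -0.25 to 0.54. For MTR the same difference was -0.38 on the brighter and -0.57 on the dimmer probe set, beside an SD of 0.28 among genes of like level. CTH, at -0.15 and 0.59, did not separate the 2 deprivations. The median over the 9 members was 0.11 and over all genes 0.02.

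**Figure D3:**
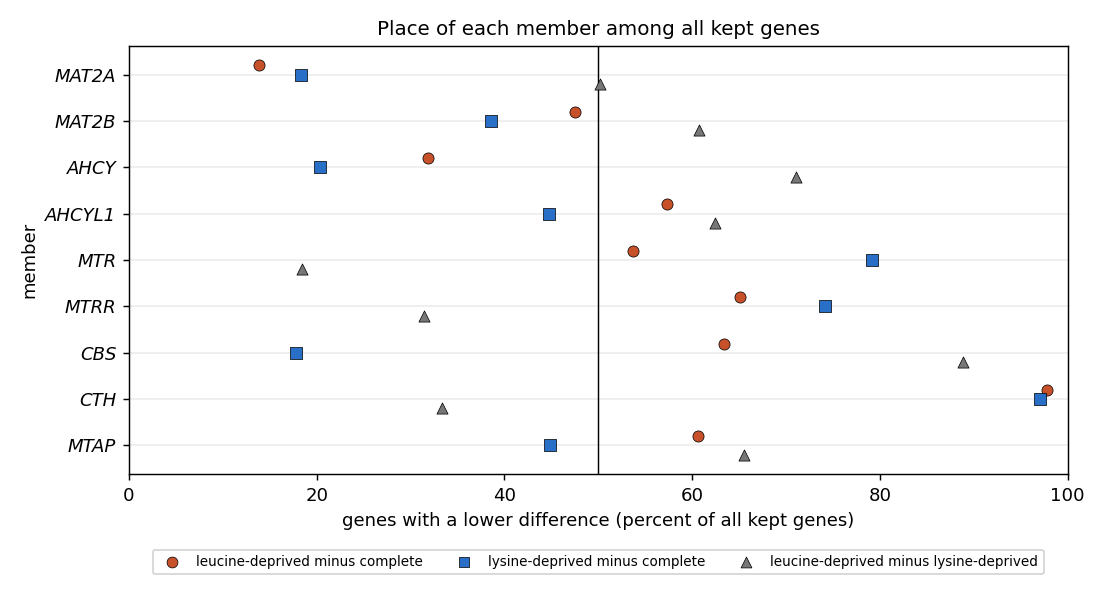
Place of each of the 9 measurable members among all 12961 kept genes, as the percent of genes with a lower difference, for leucine-deprived minus complete (circles), lysine-deprived minus complete (squares) and leucine-deprived minus lysine-deprived (triangles). CTH lies at 97.8% and 97.1% over complete medium, and CBS is the highest member, at 88.9%, between the deprived arrays.

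Around these members, the genes that bring in the one-carbon unit and the amino acids differed more than the cycle itself. In the folate arm, which supplies the methyl group for remethylation, 4 of 6 listed genes were kept (MTHFD1L and SHMT1 were not). Of these, 3 of 4 were 2-fold higher without leucine (2 with median centring, where SHMT2 was not counted) and 2 of 4 without lysine, with a median of 1.21 and 1.15. ALDH1L2, a mitochondrial folate enzyme, read 70.3 in complete medium, 361 without leucine and 336 without lysine. Its complete-medium signal was dim, near the floor of 54.6, and it had 1 kept probe set. MTHFD2, the mitochondrial methylene-tetrahydrofolate dehydrogenase, read 9581, 24410 and 25473. SHMT2, the mitochondrial serine hydroxymethyltransferase, was 1.06 and 0.88 higher. MTHFD1, the cytosolic enzyme of the arm, was not among them, at 0.04 and -0.59. Of all kept genes 51.7% were above complete medium without leucine and 50.5% without lysine. Among methionine and cystine carriers all 6 were above complete medium on both deprived arrays, with medians of 0.93 and 0.94. The number past 2-fold depended on the scaling: 1 without leucine and 3 without lysine as deposited, 3 and 3 after quantile normalization, and 1 and 2 with median centring or loess. SLC7A11, the cystine carrier, read 3089, 13567 and 14192, though 1 of its 3 probe sets was only 0.10 higher without lysine. SLC7A5, a carrier of large neutral amino acids including methionine and leucine, read 4790, 9445 and 8823, and SLC43A2 was 0.75 and 1.39 higher from a dim 95.8. CTH and SLC7A11, which supply cysteine by synthesis and by uptake, were thus both past 2-fold on each deprived array. Both lists hold known ATF4 targets, and they were chosen with earlier results of these data known. Their direction is therefore not independent of that choice. A part of ATF4 in it was not tested.

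The lists nearest to the cycle, with 7, 7, 9, 9 and 8 kept genes, were read by the brightest probe set. They gave 0 genes past 2-fold in either direction without leucine, apart from a bound for NNMT. Other kept probe sets went further, with MRI1 up to 1.13, MMAA down to -1.56 and HNMT down to -1.84 without leucine. Of all genes above both floors, 4.09% were past 2-fold either way without leucine and 6.17% without lysine. Such low counts are therefore not read as a result about these lists. Without lysine, besides the NNMT bound, PNMT was 2-fold higher as deposited but not with median centring. In that comparison 1 cobalamin gene was 2-fold lower with median centring or quantile normalization. Of other methionine cycle genes and regulators 7 of 11 were kept, with medians of -0.06 without leucine and -0.04 without lysine; MAT1A, the liver form of the SAM-making enzyme, was among those with no kept probe set of their own. SAMTOR, the SAM sensor upstream of mTORC1, was at -0.28 and -0.65. AHCYL2, a relative of AHCYL1, was at -0.53 and -0.31, but its other probe set was 0.85 and 0.67 higher. BHMT, which remethylates homocysteine with betaine, read 107 in complete medium, lay under the floor without leucine (a bound of -0.92) and read 136 without lysine. All 7 salvage and decarboxylated SAM genes were kept, 6 of 7 below 0 without leucine and 5 of 7 without lysine, with medians of -0.12 and -0.14. Of all kept genes 51.7% were above 0 without leucine and 50.5% without lysine. AMD1, which makes decarboxylated SAM for polyamines, was at -0.51 and -0.14, and the salvage enzymes APIP and ADI1 were at -0.12 and -0.12 without leucine and at -0.56 and -0.41 without lysine.

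Cobalamin handling provides the cofactors of MTR and of MMUT. The list counted here covers both, MMUT itself included, so it is not one of MTR cofactor supply alone. Of all kept genes 51.7% were above 0 without leucine and 50.5% without lysine. Of the cobalamin genes, 7 of 9 were above 0 without leucine (median 0.21) and 3 of 9 without lysine (median -0.15). Among them MMUT, the other cobalamin-dependent enzyme, was 0.33 and 0.56 higher, ABCD4, a lysosomal cobalamin exporter, 0.13 and 0.61 higher, and MMAA, also of cobalamin metabolism, was at 0.34 and -0.89, with its probe sets between -1.56 and 0.34 without leucine. Genes downstream of CTH for cysteine, glutathione and sulfide had 6 of 9 above 0 without leucine (median 0.04) and 3 of 9 without lysine (median -0.04). CSAD, of taurine synthesis, was 0.72 and 0.78 higher from a dim 134, CDO1, the cysteine dioxygenase, was at -0.57 and -0.32, and TST, a sulfurtransferase, at -0.19 and -0.63. Among small-molecule methyltransferases 8 of 10 were kept, with medians of 0.16 and 0.09. NNMT, which methylates nicotinamide, was under the floor in complete medium at 50.9 and read 195 and 141, at least 1.84 and 1.37 higher. PNMT was 0.78 and 1.13 higher from a dim 124, and TPMT 0.11 and 0.68. When arrays were centred on their medians, the cysteine, glutathione and sulfide median without leucine turned to -0.09, with 2 of 9 above 0. The methyltransferase median without lysine turned to -0.16, so no direction is given for these lists.

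**Figure D4:**
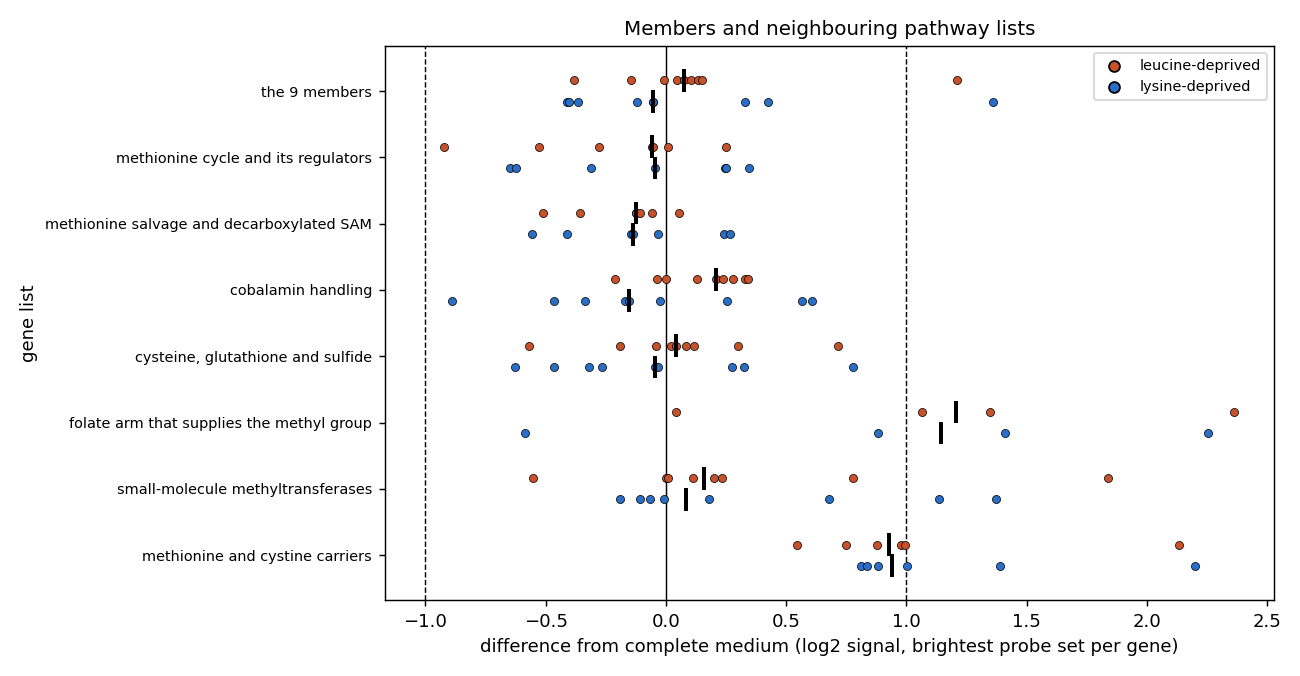
Difference from complete medium in log2 signal of the 9 measurable members and of the kept genes of 7 neighbouring lists, orange for leucine-deprived and blue for lysine-deprived; black bars are medians, dashed lines mark 2-fold, and NNMT and leucine-deprived BHMT are bounds. The folate arm (medians 1.21 and 1.15) and the carriers (0.93 and 0.94) lie right of the members (0.07 and -0.05).

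The genes whose pair of differences lay nearest to that of CTH, among 11913 other kept genes above the floor on all 3 arrays, were LINC01231 (distance 0.04 in log2 units), UAP1L1 (0.06) and VWDE (0.06). They rest on 3 arrays and on dim signals of 61.6, 110 and 65.2 in complete medium, and 41 genes lay within 0.2 of CTH. For MAT2A the nearest were LOC100506730, PSMD12 and MRC2, at 0.00 to 0.01, but 772 genes lay within 0.2, so its pattern was a common one on these arrays.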

How the data were processed

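Gene expression was measured once in each of 3 media. Per the labels' protocols, 100 ng of total RNA went into a 3′ in vitro transcription kit that yields biotin-labelled cRNA. The authors deposited a linear signal intensity for each probe set, made with MAS5 per the submitters' processing notes; version and settings: not given in the sources used here. The trimmed mean (2% at either end) was 500.1 on each array, which removes any difference in total mRNA. Of 54675 probe sets 62 controls were left out. Genes were named from the platform annotation; the Entrez identifiers of all 25 member probe sets led to the same symbol in RefSeq (GRCh38.p14), which also gave the promoter sequences. Signals were floored at the 40th percentile of the array, taken to log2, and kept where the mean reached the median (23055 probe sets naming 1 gene, 12961 genes); a gene took its brightest kept probe set. A 2-fold difference was counted only above the floor on both arrays. Genes named outside the members were up to 3 of each list, those largest in mean absolute difference over both deprivations, and the 3 nearest genes by Euclidean distance to the highest and the lowest member; MTHFD1 was named after its values were seen. The members, lists and rules were chosen with earlier results of these data known. The alternatives tried were other scalings (quantile, cyclic loess, median centring), a floor at the 20th or at the 60th percentile, log2(value + 32) with no floor, no level filter, the mean of kept probe sets, leaving out shared or cross-hybridising probe sets, and a threshold of 1.5-fold. The calculation was tested on simulated arrays with less spread than these and changes past the threshold seeded in bright genes. That checks the code, not how the 2-fold count does on these data. Detection calls were not used here, and the number of arrays limits the precision. Python 3.11.15, numpy 2.4.6, pandas 2.3.3, matplotlib 3.10.9, R 4.3.3 and limma 3.58.1 were used.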

Additional observations from a re-analysis of the deposited data

How the results depend on the processing

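The count of members past 2-fold was 1, CTH, in each comparison with complete medium and 0 between the deprived arrays under all alternatives run, the 1.5-fold threshold included. CTH ranged from 1.08 to 1.29 without leucine and from 1.07 to 1.39 without lysine over these settings, and MAT2A from -0.51 to -0.36 and from -0.65 to -0.37. The median of the members ranged from -0.06 to 0.11 without leucine, from -0.30 to 0.03 without lysine and from -0.06 to 0.23 between the deprived arrays, so it changed sign in each comparison and has no settled direction. Median centring moved the median of all genes to -0.12 without leucine, to -0.24 without lysine and to 0.13 between the deprived arrays. Counts over all genes past 2-fold moved with the floor. With it at the 60th percentile 121 genes were higher and 42 lower without leucine, 208 and 101 without lysine, and 77 and 88 between the deprived arrays. At the 20th percentile the counts were 535 and 399, 760 and 514, and 520 and 597, and with no floor 404 and 348, 627 and 461, and 473 and 518. For values without a test, a shift was set beside the SD between probe sets of a gene, and all 231 alternative values of single members stayed within it. That SD was larger than the difference of every member except CTH, so a change of sign could stay within it. MTR without leucine, for instance, ran from -0.08 to 0.05. The other floors and the lack of a level filter left every single-member value unchanged. The count of 231 is therefore no sign that small differences are stable. MAT2A, MAT2B, AHCY and MTRR had no probe set left once shared and cross-hybridising ones were left out. No paired analysis was possible because each group has 1 array.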
